A study of Homo sapiens with 6 samples.

Results

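The ATP-binding cassette (ABC) transporter genes of ovarian cancer cells were followed from untreated parental cells through polyploid giant cancer cells (PGCCs) to the daughter cells that bud from them. The members were found by symbol: ABC, 1 letter from A to G and digits, with pseudogenes and antisense names left out, and with CFTR added. They number 46 of the 59008 gene symbols in the table. ABC proteins bind and hydrolyse ATP through paired nucleotide-binding domains, and most of them use that energy to carry drugs, lipids, peptides or metal complexes across a membrane. A few members hold the ATP-binding domains without membrane spans and act on the ribosome, and CFTR is a chloride channel. The family is best known in cancer for P-glycoprotein (ABCB1), MRP1 (ABCC1) and BCRP (ABCG2), pumps that export chemotherapeutic drugs, paclitaxel being a substrate of P-glycoprotein.

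Hey and SKOV3 are human ovarian cancer lines grown in culture. From each, 1 RNA library was sequenced per state (parental cells, PGCCs and daughter cells), which makes 6 libraries. Parental cells were untreated. PGCCs received 500 nM paclitaxel, which stabilizes microtubules and thereby arrests dividing cells, for 16 hours and recovered for 3 days, and daughter cells had the same treatment and recovered for 30 days. Each daughter library is named as 1 clone, so other daughter clones were not measured here. The title of the SKOV3 PGCC library gives day 7 where its treatment label gives 3 days, so that library may have another recovery time than the Hey PGCC library. No condition has a replicate, so values carry no error, and the second line is the only repeat of a comparison. In these bulk libraries, fewer cells with a transcript and less of it per cell cannot be told apart.

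Values are TPM, the abundance of a transcript per unit length, scaled to 1000000 within a library, which the authors computed with salmon. TPM carries no read counts, so the depth behind a value is unknown and no counting error can be given. A difference is that of log2(TPM + 1), which understates the change of low genes, and a gene was called higher or lower when this reached 1 (2-fold). Calls were read for the 14988 genes that averaged 1 TPM or more over the libraries, and 25 of the 46 members are among these. The columns summed to between 911825 and 920497 TPM, and mitochondrial genes took between 2.64% and 14.8% of a library. The 8 markers of ovarian carcinoma and epithelium summed to between 1091 and 3295 TPM, most of it KRT7, KRT8 and KRT18, with PAX8 between 54.7 and 136. In Hey, EPCAM was at most 1.43 TPM, KRT19 at most 3.60 and MUC16 at most 0.0322. WT1 did not exceed 4.10 TPM in any library. The 6 fibroblast markers summed to between 0.223 and 22.9 TPM, with the most in SKOV3 daughter cells. The 4 leukocyte markers summed to between 1.5 and 69.7 TPM, with CD68 the highest of them and CD3E at 0 throughout, and the 3 endothelial markers to between 0.0622 and 48.8, nearly all CDH5 in Hey. Their part in the results was not tested. In SKOV3 PGCCs compared with parental cells, the difference of a gene followed the GC content of its transcripts across 13348 genes (Spearman correlation 0.73), against -0.05 for the same comparison in Hey. For SKOV3 daughter cells compared with PGCCs the correlation was -0.46. Values with that trend removed are given beside the calls they end and beside the SKOV3 PGCC values they move most.

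The 46 members spanned from no detected transcript to over 200 TPM. ABCE1, a ribosome recycling factor, was the highest member in 4 of the libraries, at 174 TPM in both parental and daughter cells of Hey. ABCF1, a translation factor, was highest in SKOV3 PGCCs at 107 TPM, and ABCB1 was highest in SKOV3 daughter cells at 231 TPM. Over all members, 8 had at least 10 TPM in every library. Among these were ABCE1, ABCF1 and ABCF3 of the translation factors, ABCC1, ABCC4 and ABCC5 of the drug pumps, and the peroxisomal ABCD3. At the other end, 16 members stayed under 1 TPM in every library, among them the bile salt pump ABCB11, the sterol pair ABCG5 and ABCG8, the retinal transporter ABCA4, and CFTR. ABCC12 and ABCG8 were listed at 0 throughout. A further 5 members (ABCA7, ABCA10, ABCA13, ABCC6 and ABCG2) reached 1 TPM in some library but not on average.

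**Figure D1:**
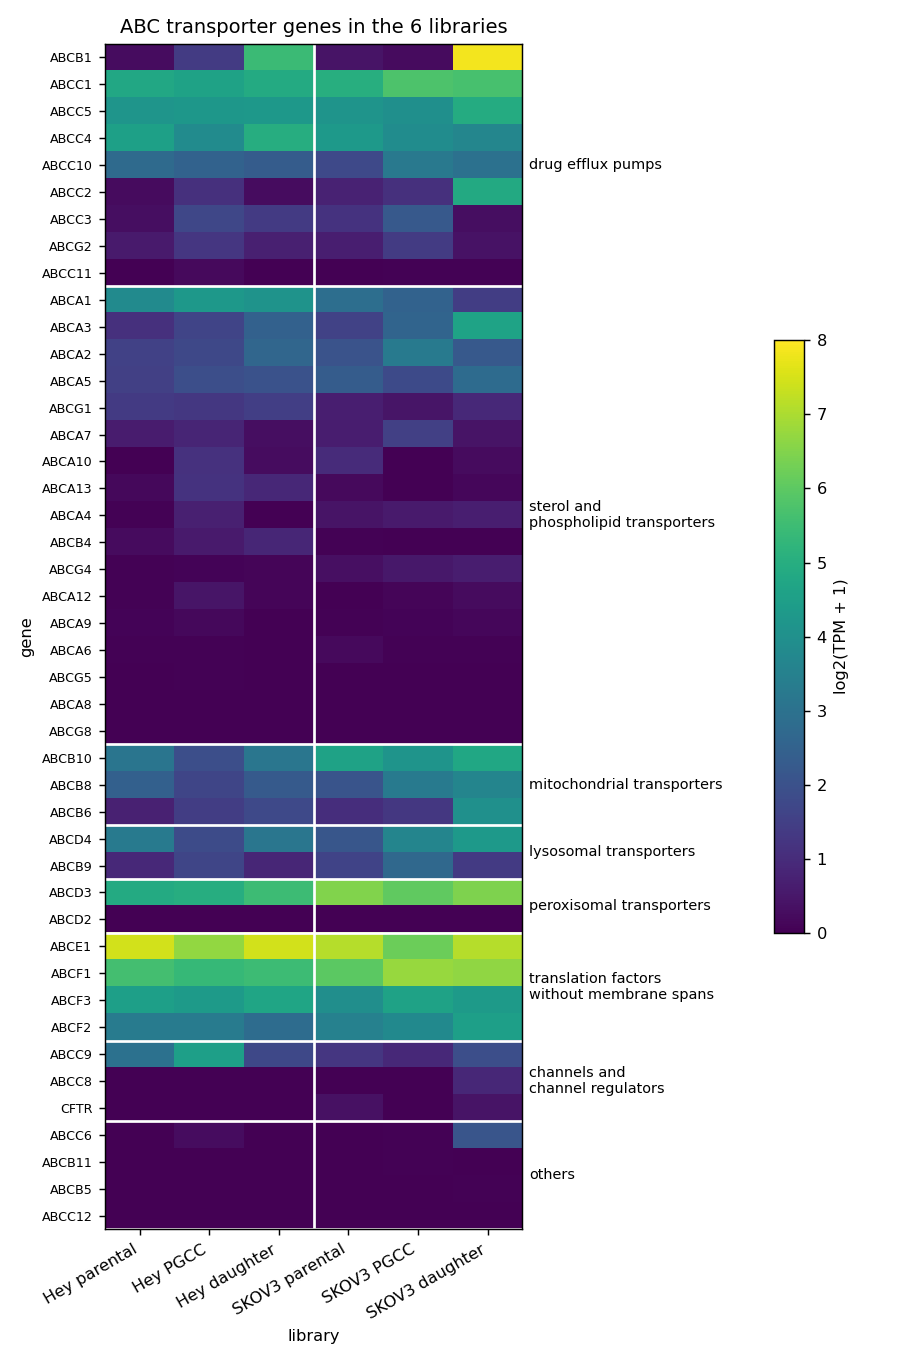
Level of 44 ABC genes as log2(TPM + 1), shown by colour, with genes in rows grouped by role and the 6 libraries in columns (1 library per condition). The brightest cells are ABCB1 in SKOV3 daughter cells (231 TPM) and ABCE1 in the Hey parental and daughter libraries (174 TPM each), and most sterol and phospholipid transporters are dark in all columns.

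The first comparison asked which members differ in daughter cells, the population that outlives paclitaxel, from the untreated cells they descend from. ABCB1, ABCA3 and ABCB6 were higher by at least 2-fold in daughter cells of both lines. These are 3 of the 25 members, where 1.19% of all genes tested were higher in both lines. No member was lower in both lines, where 0.387% of genes were. The largest difference was that of ABCB1, which encodes P-glycoprotein and lies on the minus strand of chromosome 7 (GRCh38, 87503017 to 87713323).

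ABCB1 had 0.195 TPM in parental cells of Hey, 1.60 in its PGCCs and 43.3 in its daughter cells. The corresponding SKOV3 libraries had 0.329, 0.168 and 231 TPM. The daughter libraries thus stood far above the other 4 libraries, which lay between 0.168 and 1.60 TPM. Daughter cells exceeded parental cells by 5.21 in Hey, the 6th highest of the 14988 genes, and 7.44 in SKOV3, the 5th highest. ABCB1 passed the filter on mean TPM only through the daughter libraries. With limma, which compares the states over both lines with 2 residual degrees of freedom, the difference was 6.33 (SE 0.787, adjusted p = 0.205). No member passed an adjusted p of 0.05 for daughter against parental cells in that fit (2 of all genes did, 0.0133%), and 3 members, ABCB1, ABCA3 and ABCB6, had an unadjusted p under 0.05 against 508 of all genes.

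The sequences before the starts of these 3 genes are shown because they were called together in both lines. They are RefSeq sequences of GRCh38.p14, read 5′ to 3′ on the minus strand, from 250 to 51 bases before an annotated start. Capitals mark a CCAAT box (CCAAT or its reverse complement ATTGG) or a GC box (GGGCGG or CCGCCC), motifs searched on both strands.
ABCB1, upstream start, chr7:87713346-87713545: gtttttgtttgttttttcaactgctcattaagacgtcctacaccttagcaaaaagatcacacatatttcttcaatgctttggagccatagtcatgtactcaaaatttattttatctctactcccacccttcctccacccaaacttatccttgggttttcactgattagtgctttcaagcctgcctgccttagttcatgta
ABCB1, downstream start, chr7:87600935-87601134: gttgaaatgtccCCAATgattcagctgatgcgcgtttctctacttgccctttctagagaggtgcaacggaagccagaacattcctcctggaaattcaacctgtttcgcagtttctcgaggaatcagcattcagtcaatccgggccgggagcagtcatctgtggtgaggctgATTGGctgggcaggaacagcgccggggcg
ABCA3, chr16:2340779-2340978: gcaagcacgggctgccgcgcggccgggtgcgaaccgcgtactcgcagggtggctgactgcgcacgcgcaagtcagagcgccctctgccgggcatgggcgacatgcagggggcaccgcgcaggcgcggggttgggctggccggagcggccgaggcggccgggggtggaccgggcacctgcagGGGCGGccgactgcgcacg
ABCB6, chr2:219219009-219219208: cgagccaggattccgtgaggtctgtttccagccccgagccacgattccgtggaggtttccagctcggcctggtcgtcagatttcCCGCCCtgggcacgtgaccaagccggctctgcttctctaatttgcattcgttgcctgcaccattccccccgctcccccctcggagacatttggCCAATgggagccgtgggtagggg

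The upstream ABCB1 window held neither motif, and its GC content was 38.5%. The downstream window, whose start lies inside the annotated span of the gene, held 2 CCAAT boxes, had 54.0% GC and held no GC box. The ABCA3 window held 1 GC box and the ABCB6 window held 1 of each motif. No motif was present in all of these windows. A CCAAT box was found in 27.4% and a GC box in 35.0% of the 35116 windows of this length in the table, and in 11 and 22 of the 54 windows of the 36 members it lists. The TPM table does not separate transcripts, so it does not show which start was in use.

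ABCA3, a phospholipid transporter of lamellar bodies, lies on chromosome 16 (GRCh38, 2275881 to 2340746). It had 1.18, 2.13 and 4.58 TPM in Hey parental cells, PGCCs and daughter cells, and 2.01, 4.98 and 23.9 TPM in SKOV3. In each line the PGCC value lay between those of parental and daughter cells, although the SKOV3 PGCC difference from parental cells went from 0.99 to 0.20 with the GC trend removed. Daughter cells exceeded parental cells by 1.36 in Hey and 3.05 in SKOV3 (limma 2.20, SE 0.546, adjusted p = 1.0).

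ABCB6, a porphyrin transporter placed in mitochondria and other membranes, lies on chromosome 2 (GRCh38, 219209772 to 219218994). Its TPM was 0.658, 1.72 and 2.38 in Hey parental cells, PGCCs and daughter cells, and 1.08, 1.44 and 15.0 in SKOV3. The SKOV3 daughter library stood apart from the other 5, none of which exceeded 2.38 TPM. Daughter cells exceeded parental cells by 1.03 in Hey and 2.95 in SKOV3. The Hey value lay just past the threshold. It was 0.89 with the GC trend removed and fell just under 1 with median-ratio scaling, so ABCB6 was then not called in both lines, while ABCA3 (1.23 and 2.66 with the trend removed) and ABCB1 (5.17 and 7.46) were.

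**Figure D2:**
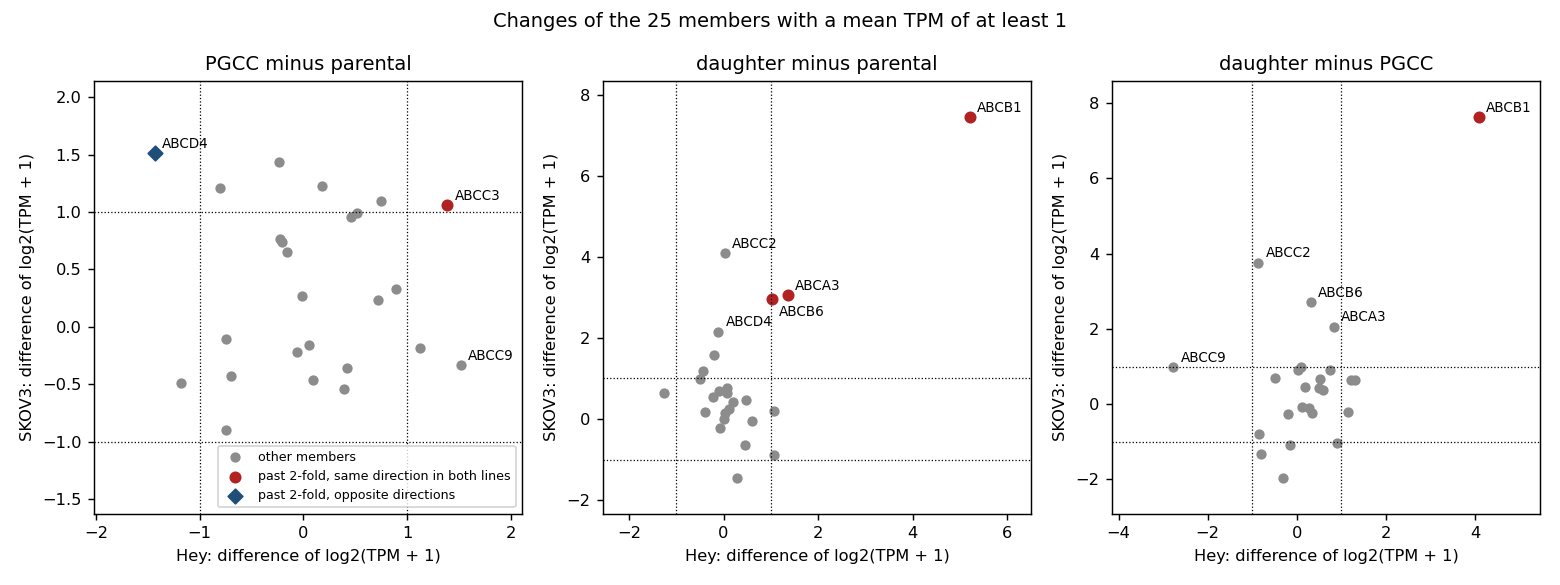
Differences of log2(TPM + 1) in Hey (horizontal axis) and SKOV3 (vertical axis) for the 25 members that passed the filter on mean TPM, in 3 panels for the 3 comparisons of states. Dotted lines mark 2-fold, and ABCB1 stands alone at the upper right in both comparisons with daughter cells, at 5.21 and 7.44 against parental cells.

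In Hey daughter cells compared with parental cells, 5 members were higher (ABCA2, ABCA3, ABCB1, ABCB6 and ABCC3), where 6.31% of all genes were, and ABCC9 was the 1 lower member, where 3.73% of genes were. In SKOV3, 7 members were higher (ABCA3, ABCB1, ABCB6, ABCB8, ABCC2, ABCC10 and ABCD4), against 15.1% of all genes, and ABCA1 was the 1 lower member, against 6.34%. The median difference of the 25 members was 0.06 in Hey and 0.55 in SKOV3, beside 0.05 and 0.15 over all genes tested. Of the 25 members, 12 differed in the same direction in both lines, as did 7021 of the 14988 genes.

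Daughter cells were compared with PGCCs next. ABCB1 was the only member higher in both lines, where 1.21% of all genes were, and no member was lower in both, where 1.07% were. In Hey, 4 members were higher in daughter cells (ABCB1, ABCB10, ABCC4 and ABCD4; 9.95% of all genes) and ABCC9 was lower (8.13%). In SKOV3, 5 were higher (ABCA3, ABCA5, ABCB1, ABCB6 and ABCC2; 14.6%) and 4 were lower (ABCA1, ABCA2, ABCB9 and ABCC3; 9.25%). With the GC trend removed, ABCA5 (0.34), ABCA2 (-0.40) and ABCB9 (-0.90) were no longer called in SKOV3. The SKOV3 split was 8 higher and 3 lower when mitochondrial genes were left out of the scaling. The members' medians were 0.27 and 0.47, beside 0.03 and 0.12 over all genes. In limma, neither a member nor any other gene passed an adjusted p of 0.05 (0.0%). At an unadjusted p under 0.05 there were 3 members (ABCB1, ABCA3 and ABCE1) and 758 genes in all, and ABCB1 had an adjusted p of 0.532. Parental cells, PGCCs and daughter cells each enter more than 1 of these comparisons, so the comparisons are not independent.

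The drug efflux pumps were measured as a group of 9 members. From parental cells to PGCCs and daughter cells, their summed TPM went from 73.4 to 65.8 and 127 for Hey and from 72.3 to 96.6 and 357 for SKOV3. Without ABCB1 the sums were 73.2, 64.2 and 83.6 in Hey and 72.0, 96.4 and 126 in SKOV3. ABCB1 thus made up 34.1% of the pump transcripts in Hey daughter cells and 64.6% in SKOV3 daughter cells, and at most 2.43% in the other libraries.

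**Figure D3:**
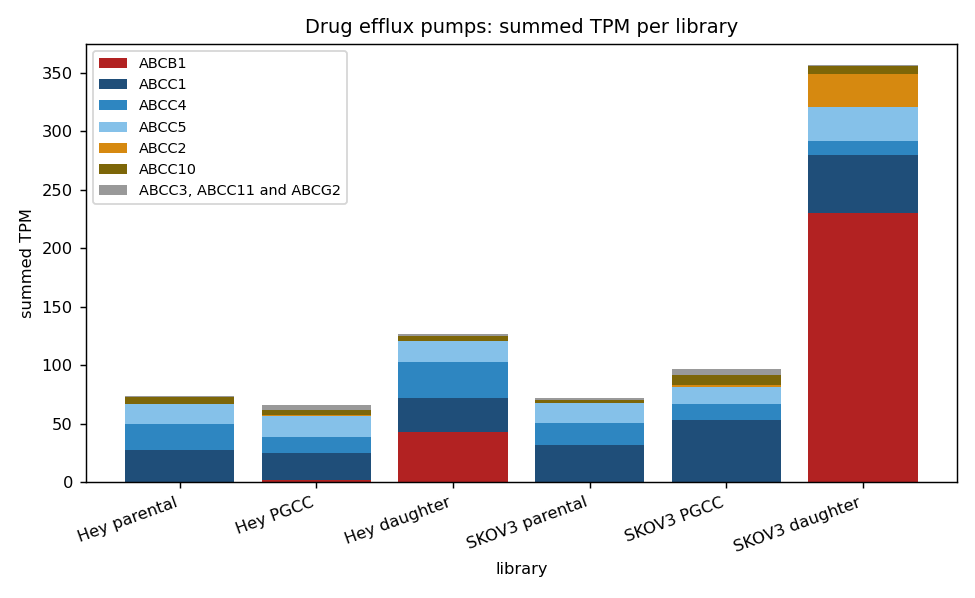
Summed TPM of the 9 drug efflux pump genes in each of the 6 libraries, as bars stacked by gene from 0. ABCC1, ABCC4 and ABCC5 fill most of the bar in parental cells and PGCCs, and ABCB1 adds 43.3 TPM in Hey and 231 TPM in SKOV3 daughter cells.

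ABCC1, which encodes the glutathione conjugate pump MRP1, was the main pump of the parental cells and PGCCs. It had 27.1, 23.3 and 28.4 TPM in Hey parental cells, PGCCs and daughter cells and 31.3, 52.8 and 49.6 in SKOV3, and was not called in any comparison of states. Its SKOV3 PGCC difference from parental cells was 0.74, or 0.30 with the GC trend removed. ABCC4, a pump of cyclic nucleotides and prostaglandins, had 22.3, 13.4 and 30.8 TPM in Hey and 18.8, 13.7 and 11.8 in SKOV3. It was lowest in PGCCs in Hey and in daughter cells in SKOV3, and only its difference between Hey daughter cells and PGCCs passed 2-fold. ABCC5, a nucleotide analogue pump, had 17.1, 17.8 and 18.0 TPM in Hey and 16.8, 15.0 and 29.2 in SKOV3. ABCC10, a further pump with taxanes among its substrates, had 5.75, 4.75 and 3.99 TPM in Hey and 2.43, 8.31 and 6.83 in SKOV3. It was called higher than in parental cells in both PGCCs and daughter cells of SKOV3 and in neither state of Hey. With the GC trend removed neither SKOV3 value passed 2-fold, at 0.81 and 0.94.

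ABCC2, the canalicular pump MRP2, was high in a single library. Its TPM was 0.174, 1.18 and 0.197 in Hey parental cells, PGCCs and daughter cells, and 0.718, 1.15 and 28.3 in SKOV3. The SKOV3 daughter value alone carried it past the filter, with a difference of 4.09 from parental cells, the 87th highest of all genes. In Hey the same comparison gave 0.03.

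ABCC3, the basolateral pump MRP3, was the 1 member higher in PGCCs of both lines than in parental cells, where 0.834% of all genes were. It had 0.231, 2.22 and 1.6 TPM in Hey and 1.26, 3.71 and 0.216 in SKOV3. ABCC3 passed the filter on mean TPM only through the PGCC libraries, the state in which it was called higher. In SKOV3 its highest value was in PGCCs and its lowest in daughter cells, while in Hey daughter cells it was above parental cells, by 1.07 or, with the GC trend removed, 0.94. The PGCC difference was 1.39 in Hey and 1.06 in SKOV3, and the SKOV3 value was 0.55 with the GC trend removed and 0.99 with median-ratio scaling, both under the threshold. ABCG2, which encodes BCRP, had 0.495, 1.39 and 0.613 TPM in Hey and 0.605, 1.64 and 0.322 in SKOV3. It was highest in PGCCs of each line, at levels too low for the filter. The Hey PGCC library had more genes above 0 TPM than any other library (25370). The part of this in the Hey values of ABCC3 and ABCG2 was not tested. ABCC11, a pump of cyclic nucleotides and steroid conjugates, did not exceed 0.163 TPM.

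PGCCs were compared with parental cells to see which members differ after the drug, at 3 days of recovery by the labels. The title of the SKOV3 PGCC library gives day 7, so the lines may differ in time. In Hey, 3 members were higher (ABCB1, ABCC3 and ABCC9; 7.67% of all genes) and 2 lower (ABCB10 and ABCD4; 5.22%). In SKOV3, 6 were higher (ABCA2, ABCB8, ABCB9, ABCC3, ABCC10 and ABCD4; 9.94%) and none lower (4.96%). Hey PGCCs had 25370 genes above 0 TPM, against 19920 in Hey parental cells and 20154 to 23893 in the other libraries. The Hey shares of 7.67% higher and 5.22% lower became 5.26% and 6.36% when the filter was raised to 5 TPM. At a pseudocount of 0.1 they were 13.9% and 7.25%. ABCB1 (0.195 to 1.60 TPM) and ABCC3 (0.231 to 2.22) were low in Hey, and the part of wider detection in their calls was not tested. No member was lower in both lines, where 0.834% of genes were. The medians were 0.06 and 0.27, beside 0.00 and 0.02 over all genes. In limma no member passed an adjusted p of 0.05 (3 genes in all did, 0.02%), and only ABCE1 of the members, with 409 genes in all, had an unadjusted p under 0.05. With the GC trend removed, ABCD4 at 1.05 was the only member still called in SKOV3, where ABCC10 was at 0.81, ABCB8 at 0.43 and ABCA2 and ABCB9 at 0.27 each. The share of all genes called higher in SKOV3 fell as well, from 9.94% to 2.12% of the 13348 with a GC value. The 6 SKOV3 members have 56.1% to 63.6% GC in their transcripts.

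**Figure D4:**
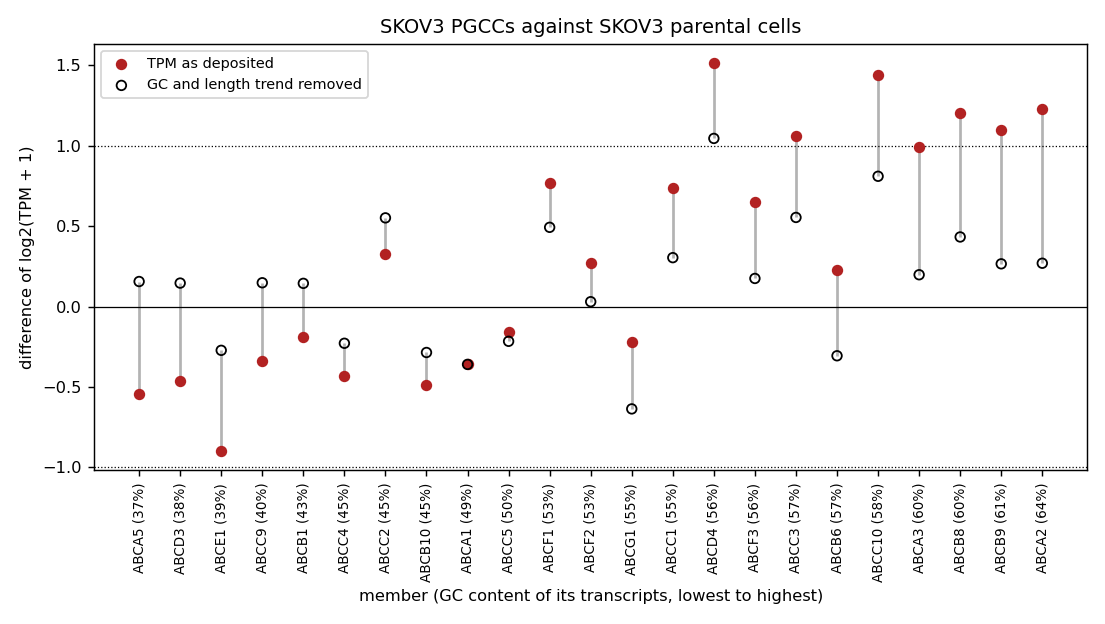
Difference of log2(TPM + 1) between PGCCs and parental cells of SKOV3 for 23 members that passed the filter, ordered by the GC content of their transcripts (in brackets). Filled points are TPM as deposited and open points have the trend in GC content and length removed. Members past 2-fold (dotted lines) go from 6 to 1, ABCD4 at 1.05, and the share of all genes called higher from 9.94% to 2.12%.

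ABCD4, which helps to move vitamin B12 out of the lysosome, was called lower in PGCCs of Hey and higher in those of SKOV3. It had 8.58, 2.56 and 7.85 TPM in Hey parental cells, PGCCs and daughter cells and 3.41, 11.6 and 18.7 in SKOV3. In Hey the PGCC library was the low one, while in SKOV3 the parental library was. PGCCs thus differed from parental cells by -1.43 for Hey and by 1.51 for SKOV3. ABCB9, a lysosomal peptide transporter, had 0.895, 2.18 and 0.810 TPM in Hey and 2.03, 5.50 and 1.6 in SKOV3, with its highest value in PGCCs of each line.

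Of the 5 sterol and phospholipid transporters that passed the filter, ABCA1, the cholesterol exporter that loads HDL, had the highest mean. Its TPM was 13.3, 18.2 and 16.3 in Hey parental cells, PGCCs and daughter cells and 6.40, 4.78 and 1.71 in SKOV3. All 3 Hey libraries lay above all 3 SKOV3 libraries, and in SKOV3 the daughter library was lowest, at a difference of -1.45 from parental cells. ABCA2, a lipid transporter of endolysosomes, had 1.94, 2.33 and 5.20 TPM in Hey and 3.14, 8.70 and 3.72 in SKOV3. It was highest in daughter cells of Hey and in PGCCs of SKOV3, and the latter value moves with the GC trend given above. ABCA3, ABCA5 and ABCG1 were the other 3 that passed. The remaining 12 of this group of 17 had a mean under 1 TPM, including 4 of the 5 members of the ABCA5 cluster on chromosome 17 (GRCh38, 68867289 to 69327244), where only ABCA5 passed the filter.

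Of the mitochondrial transporters, ABCB6 is described above. ABCB10, which acts in haem synthesis, had 7.57, 2.77 and 7.81 TPM in Hey and 23.5, 16.5 and 26.2 in SKOV3. It was lowest in PGCCs of each line, and of its differences from parental cells the PGCC value of Hey, -1.18, passed 2-fold. ABCB8, part of a mitochondrial potassium channel, had 4.51, 2.17 and 3.78 TPM in Hey and 3.19, 8.66 and 11.5 in SKOV3, lowest in PGCCs of Hey and in parental cells of SKOV3.

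The peroxisomal ABCD3, a carrier of branched and long-chain acyl-CoA, had 28.4, 30.5 and 43.6 TPM in Hey and 89.3, 64.5 and 86.5 in SKOV3. The 3 Hey libraries lay below the 3 SKOV3 libraries, and no difference between states of a line passed 2-fold.

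ABCE1 had 174, 103 and 174 TPM in Hey and 137, 73.0 and 138 in SKOV3. PGCCs were lowest in both lines, with parental and daughter cells nearly level, and the difference of PGCCs from parental cells was under 2-fold in each (limma -0.82, SE 0.344, adjusted p = 1.0). With the GC trend removed the SKOV3 difference of ABCE1 went from -0.90 to -0.27. ABCF1 had 47.5, 40.5 and 44.2 TPM in Hey and 62.4, 107 and 101 in SKOV3. None of the 4 translation factors was called in any comparison of states. The value of ABCF2 is uncertain, since the table also lists a read-through transcript with the neighbouring H2BE1 (15.3 to 37.5 TPM) that shares its sequence.

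ABCC9, the sulphonylurea receptor SUR2 of potassium channels, had 6.98, 21.9 and 2.34 TPM in Hey parental cells, PGCCs and daughter cells and 1.41, 0.910 and 2.77 in SKOV3. It was called in all 3 comparisons of Hey, at 1.52, -1.26 and, for daughter cells against PGCCs, -2.77, and in none of SKOV3. ABCC8, the receptor SUR1, reached at most 0.851 TPM, in SKOV3 daughter cells. ABCC6, an ATP release transporter of liver and kidney, was listed at 0 in parental and daughter cells of Hey and in parental cells of SKOV3, at 0.209 TPM in Hey PGCCs and 0.0436 in SKOV3 PGCCs, and at 3.34 in SKOV3 daughter cells. Its pseudogenes ABCC6P1 and ABCC6P2 were at 0.535 and 1.63 TPM in that same library, so reads of the copies may have been split between them.

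The lines were also compared with each other. Between the parental cells, 3 members were higher in SKOV3 (ABCB10 and ABCD3 among them; 24.2% of all genes) and 2 were lower (ABCC9 and ABCD4; 11.5%), or 3 and 4 with median-ratio scaling. The members' median was 0.20, beside 0.29 over all genes. Over the 3 states, limma gave 4 members an adjusted p under 0.05, where 20.6% of all genes had one. The states of a line served as its repeats in that fit. Its SE thus measures how the line difference varies over the states, not the spread of replicate cultures. ABCB10 was higher in SKOV3 by 1.79 (SE 0.336, adjusted p = 0.0116), as was ABCD3 by 1.22 (SE 0.307, adjusted p = 0.0318). ABCA1 was lower in SKOV3, with a difference of -1.79 (SE 0.418, adjusted p = 0.0248). All 4 lost that threshold without the SKOV3 PGCC library. That fit leaves 1 PGCC library and fewer residual degrees of freedom for every gene, and the loss was not particular to these members.

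The genes around ABCB1 were set beside it. Of the other genes within 1 Mb, 9 passed the filter. In daughter cells compared with parental cells all 9 had a difference above 0 in both lines, with a median of 1.84 in Hey (0.94 for DMTF1 to 2.40 for TP53TG1) and 1.14 in SKOV3 (0.62 for SLC25A40 to 2.0 for RUNDC3B), beside 0.05 and 0.15 over all genes. Past 2-fold were 8 of them in Hey and 6 in SKOV3, where 6.31% and 15.1% of all genes were, each by less than ABCB1 itself. In PGCCs compared with parental cells their medians were -0.02 and -0.20. RUNDC3B overlaps ABCB1, so reads of the pair may not be fully separated. RUNDC3B also passed the filter on mean TPM only through the daughter libraries. DBF4, within 1 Mb but under the filter, differed in daughter from parental cells by 1.22 in Hey and -0.59 in SKOV3. ABCB4, the phosphatidylcholine transporter of bile and a close paralogue that lies beside ABCB1, had 0.176, 0.489 and 0.811 TPM in Hey and 0.0393 in parental cells of SKOV3, and was listed at 0 in the other libraries of SKOV3. It did not pass the filter on mean TPM and so could not be called.

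**Figure D5:**
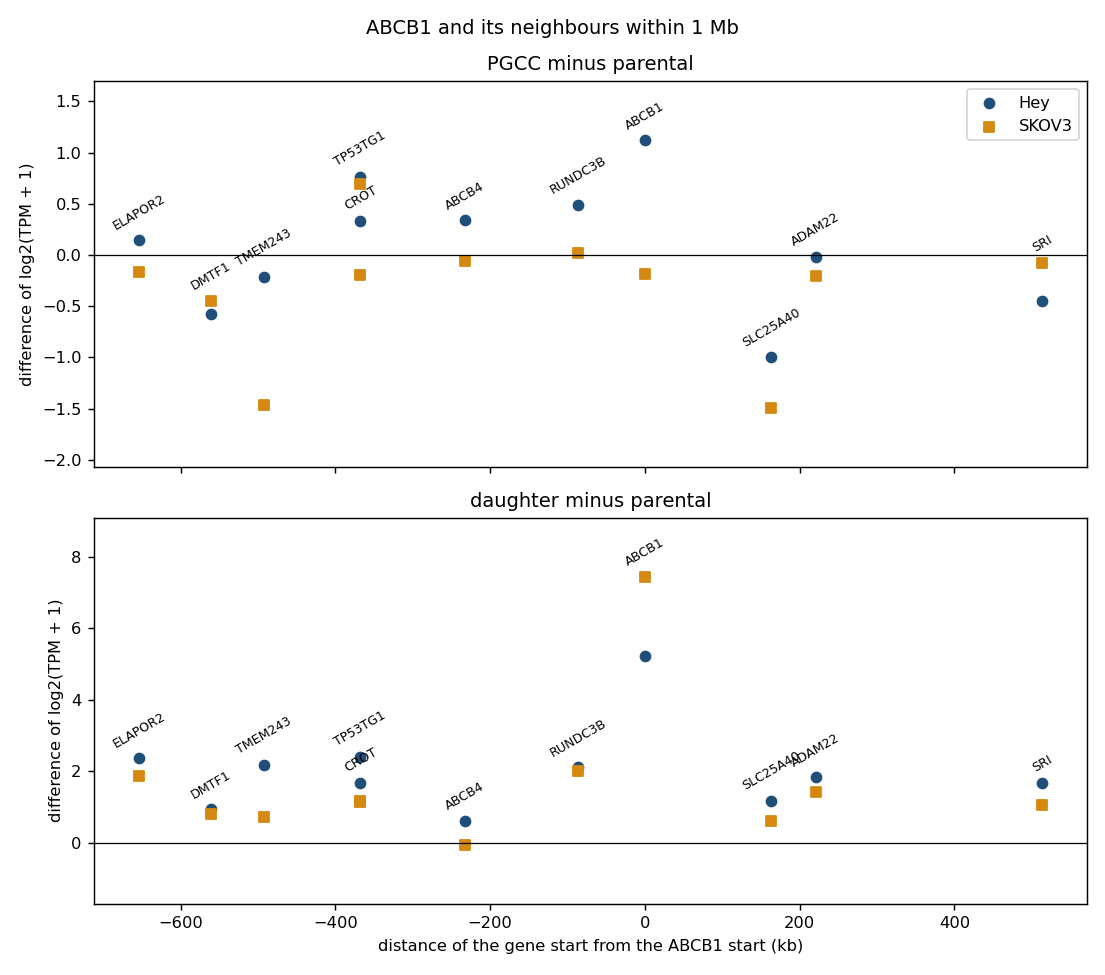
Difference of log2(TPM + 1) for ABCB1, ABCB4 and the 9 other genes within 1 Mb that passed the filter, by distance of the gene start from that of ABCB1 in kb, in Hey (circles) and SKOV3 (squares). In daughter cells all 9 lie above 0 in both lines, and ABCB1 stands above them at 5.21 and 7.44.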

How the data were processed

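The authors trimmed reads with fastp and quantified them on the human transcriptome (hg38) with salmon 0.14.1. They deposited a table of TPM by gene symbol, with 6 columns. The step from transcripts to symbols and the annotation release are not given in the sources used here. The deposited TPM entered every step without rescaling, and no counts were analysed here.

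Differences of log2(TPM + 1) were called at 1 or more for genes that averaged 1 TPM or more. For a test over both lines, limma 3.58.1 (R 4.3.3) was fitted to log2(TPM + 1) of the same genes with terms for state and for cell line, an eBayes intensity trend, and p-values adjusted by Benjamini-Hochberg over all genes tested. The shared number 1 of the libraries marks no pairing, and cell line was the block. The spread in that fit is the disagreement between the lines across states, not that of replicate cultures. GC content, length and positions are those of GENCODE release 44 on GRCh38. The trend in GC content and length was fitted by lowess (fraction 0.3, 2 passes) and subtracted. ABCC13, a pseudogene, was left out. Values of 2 members are not reported here by name, though counts over the members include them.

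Given in full by the rule for named genes are members called in both lines, drug pumps and the 2 members of each role with the highest mean. The members, lists and tests were chosen with earlier results of these data known. Steps were run on simulated data in which changed genes changed alike in both lines. That does not show how they perform where the lines disagree. Alternatives were other pseudocounts, filters, scalings, thresholds and limma settings. Python 3.11.15 with statsmodels 0.14.6, numpy 2.4.6 and pandas 2.3.3 served for the rest.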

Additional observations from a re-analysis of the deposited data

Results flagged for a closer look

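ABCD4, the lysosomal vitamin B12 transporter, stood out because PGCCs of the lines moved in opposite directions from parental cells, by -1.43 in Hey and 1.51 in SKOV3. The SKOV3 value was 1.05 with the GC trend removed. The title of the SKOV3 PGCC library gives day 7, so line and recovery time cannot be told apart. The difference between the lines was not tested, as there is 1 library per condition. Among all genes tested, 184 were called in opposite directions in this comparison.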

How the results depend on the processing

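Counts of members called are given as higher and lower, for each setting that moved them by over 1.5 times. At a pseudocount of 0.1, 6 were higher in Hey PGCCs than in parental cells, 2 lower in Hey and 2 in SKOV3 daughter than parental cells, 4 lower in Hey daughter cells than PGCCs, and 7 higher and 5 lower in SKOV3 than Hey parental cells, with 2 higher in PGCCs of both lines and 2 higher and 1 lower in daughter cells than PGCCs of both. At a mean TPM of at least 5, 2 were higher in Hey daughter than parental cells, 3 in SKOV3 PGCCs than parental cells, 3 higher and 1 lower in SKOV3 daughter cells than PGCCs, and 0 higher in PGCCs of both lines. Median-ratio scaling gave 4 lower in SKOV3 than Hey parental cells and 0 higher in PGCCs of both lines, and without mitochondrial genes 8 were higher in SKOV3 daughter cells than PGCCs. At 1.5-fold, PGCCs against parental cells gave 6 and 6 in Hey and 11 and 1 in SKOV3. In both lines they gave 2 and 1 (3.3% and 3.07% of all genes). Daughter against parental cells of SKOV3 gave 12 and 3 (28.1% and 13.6% of all genes). Daughter cells against PGCCs gave 8 and 4 in Hey, 12 higher in SKOV3, and 5 and 2 in both lines, and the parental lines 6 and 5. At 3-fold, PGCCs gave 0 and 0 in Hey (2.95% and 1.71% of all genes), 0 higher in SKOV3 (2.01%) and 0 in both lines. Daughter against parental cells gave 1 and 0 in Hey (2.21% and 1.19%) and 0 lower in SKOV3 (2.94%). In both lines 1 was higher, ABCB1 (0.227%). Daughter cells against PGCCs gave 1 higher in Hey (3.44%) and 1 lower in SKOV3 (3.71%). The parental lines gave 1 and 1 (12.6% and 6.29%). With the GC and length trend removed, daughter against parental cells gave 3 higher in Hey and 2 lower in SKOV3, daughter cells against PGCCs 3 lower in Hey and 2 lower in SKOV3, PGCCs against parental cells 1 higher in SKOV3 and 0 in both lines, and the parental lines 4 lower. The share of all genes called moved as well. Over the 7 comparisons, in either direction, it was 3.73% to 24.2% as reported, 10.7% to 38.1% at 1.5-fold (17.1% and 14.4% for Hey PGCCs, 22.9% and 16.3% for SKOV3 PGCCs against parental cells), 1.01% to 12.6% at 3-fold, 6.84% to 29.1% at the lower pseudocount, 3.35% to 21.5% at a mean TPM of at least 5, 5.09% to 18.3% with median-ratio scaling, 3.34% to 26.8% without mitochondrial genes and 2.12% to 16.2% with the trend removed. In both lines it was 0.387% to 1.21% as reported, 1.52% to 4.88% at 1.5-fold and 0.127% to 0.32% at 3-fold. At the lower pseudocount, 2.46% of genes were higher in PGCCs than parental cells of both lines. Daughter cells against PGCCs then gave 2.24% higher and 2.32% lower. The share higher in PGCCs of both lines was 0.63% at a mean TPM of at least 5, 0.714% with median-ratio scaling and 0.375% with the trend removed. The causes were not tested. Median-ratio scaling moved the median of all genes from 0.29 to 0.00 between the parental lines, from 0.15 to -0.02 for SKOV3 daughter against parental cells and from 0.12 to 0.00 for SKOV3 daughter cells against PGCCs. Leaving out mitochondrial genes moved it from 0.00 to 0.11 for Hey PGCCs against parental cells and from 0.12 to 0.23 for SKOV3 daughter cells against PGCCs. Members past an adjusted p of 0.05 in limma between the lines were 0 of 44 with no filter, where 329 of 31474 genes passed. At an unadjusted p under 0.05 that fit had 7 members and 6579 genes in all. Members were also lost without the SKOV3 PGCC library, a choice made after seeing the data. That fit leaves 1 PGCC library, and the loss was not particular to the members. Without the replicate block of cell line, 0 members passed in each of the 3 comparisons of states, as with it. An unadjusted p under 0.05 was then found for 0, 2 and 1 members, against 96, 79 and 138 of all genes. Over the alternatives, the ABCB1 difference of daughter from parental cells ranged from 5.17 to 7.20 (Hey) and from 7.15 to 9.07 (SKOV3). No result changed sign past the threshold. With 1 library per condition, leaving out a library leaves no difference within a line, and depth is unknown.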

Other observations

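Other genes of ABC transporter biology were taken from lists of regulators and partners, taxane uptake and metabolism, and antigen peptide transporters, 29 genes of which 22 had a mean TPM of at least 1. In PGCCs compared with parental cells, 1 was higher and 1 lower in Hey (7.67% and 5.22% of all genes were), and 4 were higher and 3 lower in SKOV3 (9.94% and 4.96%). With the GC trend removed, only MVP (1.10) and FOXO1 (-1.55) of these stayed past 2-fold in SKOV3, where 2.12% and 2.5% of all genes were. NR1H2 was then at 0.27 and SREBF1 at 0.12, and SREBF2, LMBRD1 and SLCO1B3 are given below. In daughter cells compared with parental cells, 2 were higher and 0 lower in Hey (6.31% and 3.73%), and 3 were higher and 1 lower in SKOV3 (15.1% and 6.34%). With the trend removed, MMACHC in Hey (0.98) and TAP1 (0.67) and TAP2 (0.83) in SKOV3 were no longer past 2-fold. In neither comparison was a gene of these lists called alike in the 2 lines. NR1I2, the xenobiotic receptor that induces ABCB1 in liver, was listed at 0 in the 6 libraries, and CYP2C8 and CYP3A4, enzymes that metabolize paclitaxel, did not exceed 0.139 and 0.0700 TPM.

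SREBF2, a regulator of cholesterol synthesis, was called in opposite directions in PGCCs. It had 46.7, 21.6 and 27.4 TPM in Hey parental cells, PGCCs and daughter cells and 20.2, 51.2 and 58.1 in SKOV3, a difference of PGCCs from parental cells of -1.08 and 1.30. With the GC trend removed the values were -0.99 and 0.77, so neither line was then past 2-fold. LMBRD1, the lysosomal partner of ABCD4, had 32.5, 34.0 and 29.2 TPM in Hey and 28.4, 11.9 and 41.3 in SKOV3. In SKOV3 PGCCs it was thus low where ABCD4 was high, at -1.19 against 1.51, and it was at -0.50 with the trend removed. SLCO1B3, a carrier that takes up paclitaxel, had 119, 59.8 and 62.2 TPM in Hey and 98.8, 38.6 and 69.1 in SKOV3, with its lowest value in PGCCs of each line. The difference of PGCCs from parental cells was -0.98 in Hey, under the threshold, and -1.33 in SKOV3, or -0.56 with the trend removed. LMBRD1 and SLCO1B3 were singled out after their values were seen.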
